A study of Mus musculus with 9 samples.

Results

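Motile cilia genes and Ovgp1, the gene of the oviduct's secreted glycoprotein, were followed through 9 RNA sequencing libraries of mouse granulosa cells. The set held 48 genes of the 56748 in the deposited table, found by symbol, and it comprised 3 regulators of multiciliation, 44 genes of the cilium or of ciliated cells, and Ovgp1. The set was assembled with these libraries' values known: Rsph9 and Ankrd66 had stood out in CTX over Control, Rsph1, Fam92b, Ankrd66 and Dynlt1b in CTX_HCQ under CTX, and Ovgp1 and Foxj1 had been picked once their values had been seen. Differences of the 48 genes between the groups are therefore described here. Calls among them in fits over all genes are given as descriptions and are not a test of the set.

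All mice were wild-type C57BL/6 females, and each group had 3 libraries. CTX_HCQ mice received cyclophosphamide, an alkylating drug used to model premature ovarian failure, by injection at 120 mg per kg, and hydroxychloroquine, a lysosome-acting antimalarial, as a daily oral dose of 40 mg per kg starting 7 days ahead of the injection and ending 4 weeks past it. CTX mice received the cyclophosphamide alone. Control mice received neither drug, and are called vehicle-treated in the design text and untreated in the labels. The labels give no age and leave unsaid if each library is 1 mouse or pooled mice, so every spread given here is a spread between libraries, which may in part be technical.

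Motile cilia are beating hair-like organelles built on a ring of outer microtubule doublets around a central pair. Dynein arms slide the doublets, radial spokes and nexin links control the sliding, and tektins and other proteins inside the doublets stiffen them. In the female tract such cilia are carried in large numbers by the multiciliated cells of the oviduct epithelium, which lie beside secretory cells that make Ovgp1. Foxj1 and the RFX factors switch on the genes of motile cilia. Granulosa cells, the somatic cells around the oocyte, are known to carry a single primary cilium, which is built by intraflagellar transport and has neither dynein arms nor spokes.

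Promoter sequence was at hand for 39 of the 48 genes, as 250 bases before and 50 bases after the gene's start in RefSeq on GRCm38.p6. These genes had 44 promoters, since Cfap126, Tekt1 and Tekt2 have more than 1, and a gene was counted for a motif where any of its promoters held it. The letters searched on both strands were GTTGCC, the core RFX site, the RFX palindrome, made of GTNNCC and GGNNAC spaced by NN, and GTAAACA, a forkhead site. The core site was found for 22 of 39 member genes (56.4%), 40 of 85 other motile cilia genes (47.1%) and 3821 of all 27025 genes with a promoter (14.1%). The palindrome was found for 6 of 39 (15.4%), 15 of 85 (17.6%) and 583 of 27025 genes (2.16%). The forkhead letters were found for 3 of 39 (7.69%), 7 of 85 (8.24%) and 1095 of 27025 genes (4.05%). Both RFX motifs were held by 4 members, either by 24, and none of the 3 motifs by 13. A match is a description of the letters, and no binding was measured. The sequences below are those of 5 cilia genes whose promoters hold an RFX motif and of Ovgp1, which holds none of the 3, with the motif in capitals.
Ccdc153, chr9:44240427-44240726, plus strand: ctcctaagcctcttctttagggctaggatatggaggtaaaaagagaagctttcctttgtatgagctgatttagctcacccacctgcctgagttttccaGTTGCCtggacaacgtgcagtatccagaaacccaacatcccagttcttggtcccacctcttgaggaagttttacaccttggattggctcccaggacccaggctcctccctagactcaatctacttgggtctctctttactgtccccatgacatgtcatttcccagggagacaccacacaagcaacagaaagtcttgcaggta
Fam183b, chr11:58801911-58802210, minus strand: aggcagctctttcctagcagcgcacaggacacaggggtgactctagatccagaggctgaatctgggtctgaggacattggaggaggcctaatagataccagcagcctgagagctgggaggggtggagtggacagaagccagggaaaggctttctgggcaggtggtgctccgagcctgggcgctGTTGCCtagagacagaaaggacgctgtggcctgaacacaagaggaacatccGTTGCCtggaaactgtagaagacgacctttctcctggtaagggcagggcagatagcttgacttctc
Dynlrb2, chr8:116504765-116505064, plus strand: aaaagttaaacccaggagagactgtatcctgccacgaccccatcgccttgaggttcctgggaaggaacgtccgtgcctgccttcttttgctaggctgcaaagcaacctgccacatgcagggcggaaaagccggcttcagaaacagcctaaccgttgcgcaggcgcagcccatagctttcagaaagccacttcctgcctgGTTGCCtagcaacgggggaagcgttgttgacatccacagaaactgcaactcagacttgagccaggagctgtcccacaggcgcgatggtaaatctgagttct
Rsph9, chr17:46144151-46144450, minus strand: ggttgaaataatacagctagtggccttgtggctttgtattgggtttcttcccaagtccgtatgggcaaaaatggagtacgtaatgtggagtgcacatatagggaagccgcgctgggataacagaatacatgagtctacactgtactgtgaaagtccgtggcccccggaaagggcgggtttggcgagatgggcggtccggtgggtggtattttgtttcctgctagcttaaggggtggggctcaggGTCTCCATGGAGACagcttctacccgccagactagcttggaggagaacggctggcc
Zmynd10, chr9:107547054-107547353, plus strand: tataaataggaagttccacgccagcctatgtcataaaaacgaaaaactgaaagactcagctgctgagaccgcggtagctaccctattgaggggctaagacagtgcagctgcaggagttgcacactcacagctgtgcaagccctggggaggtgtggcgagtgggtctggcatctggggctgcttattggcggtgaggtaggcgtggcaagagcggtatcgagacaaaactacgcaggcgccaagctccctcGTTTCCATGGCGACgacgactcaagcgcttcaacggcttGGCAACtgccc
Ovgp1, chr3:105973552-105973851, plus strand: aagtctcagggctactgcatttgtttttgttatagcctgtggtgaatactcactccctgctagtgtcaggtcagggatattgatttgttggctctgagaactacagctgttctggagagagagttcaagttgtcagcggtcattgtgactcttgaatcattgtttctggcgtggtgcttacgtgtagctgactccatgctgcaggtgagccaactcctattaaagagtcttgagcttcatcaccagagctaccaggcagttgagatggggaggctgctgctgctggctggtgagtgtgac
Ccdc153 and Dynlrb2 hold 1 core site each and Fam183b holds 2, Rsph9 holds the palindrome, and Zmynd10 holds the palindrome and, close behind it, a core site read on the other strand.

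The deposited FPKM divides reads by gene length and sequencing depth. The library sizes it implies ran from 15344525 reads (CTX_HCQ 3) to 17943266 reads (Control 2). The reads recovered per gene summed to 13900818 in CTX_HCQ 3, below its size. In CTX 1 they summed to 17292793, above its size of 16820966, so recovery was incomplete or inexact for some genes. The granulosa label was matched by the data: the inhibin subunit Inha lay between 2865 and 4951 FPKM, Amh between 172 and 540 FPKM and the granulosa factor Foxl2 between 67.8 and 104 FPKM over all 9 libraries. The 14431 genes that reached an FPKM of 1 in 3 or more libraries entered a limma fit on log2(FPKM + 1), and 34 of the 48 members were among them. In each of the 3 comparisons 0 genes passed an adjusted p of 0.05 (0.0%), members included. The smallest adjusted p over all genes was 0.639 in CTX against Control, 0.394 in CTX_HCQ against CTX and 0.669 in CTX_HCQ against Control. At an unadjusted p under 0.05 the fit held 1126 genes (7.8%) in CTX against Control, 785 (5.44%) in CTX_HCQ against CTX and 312 (2.16%) in CTX_HCQ against Control. limma voom on the recovered reads likewise called 0 genes in each comparison. Differences below are of mean log2(FPKM + 1), a scale that compresses differences between low values.

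The cilia genes were high in 4 libraries, CTX 1 to 3 and Control 1, and low in the other 5. The 47 genes other than Ovgp1 summed to 54.4, 53.8 and 58.1 FPKM in CTX_HCQ 1 to 3, 155, 149 and 220 FPKM in CTX 1 to 3, and 141, 54.1 and 52.2 FPKM in Control 1 to 3. Control 1 thus lay just under the CTX libraries, Control 2 lay within the CTX_HCQ range and Control 3 just below it. Much of the sum in the low libraries came from Dynlt1b and Ccno. Dynlt1b had 17.5, 15.4 and 13.3 FPKM in CTX_HCQ 1 to 3 and 23.3 and 24.3 FPKM in Control 2 and 3. Ccno had 9.91, 10.7 and 9.54 FPKM and 10.3 and 10.5 FPKM in the same libraries. The 41 members whose values had not been given for these libraries before summed to 29.4, 32.6 and 39.3 FPKM in CTX_HCQ, 89.6, 91.6 and 146 FPKM in CTX, and 92.4, 25.8 and 23.1 FPKM in Control. This sum leaves out Foxj1, Rsph1, Rsph9, Fam92b, Ankrd66 and Dynlt1b as well as Ovgp1. In it, Control 1 was above CTX 1 and 2, and Control 2 and 3 were below every CTX_HCQ library. The 4 highest values of a gene were those of CTX 1 to 3 and Control 1 in 41 of the 48 members, and in 2.49% of the 14431 tested genes. Of the 41 members whose values had not been given before, 34 had this order (82.9%). These too were chosen with earlier results of the same libraries known, so they are no separate check of the order. The exceptions among the 48 were Mcidas, Ccno, Dnah2, Ccdc39, Cfap44, Cfap53 and Tekt2. In bulk RNA, fewer ciliated cells and less RNA of these genes per cell cannot be told apart. Whether oviduct cells were carried over into some of the libraries was not tested.

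**Figure D1:**
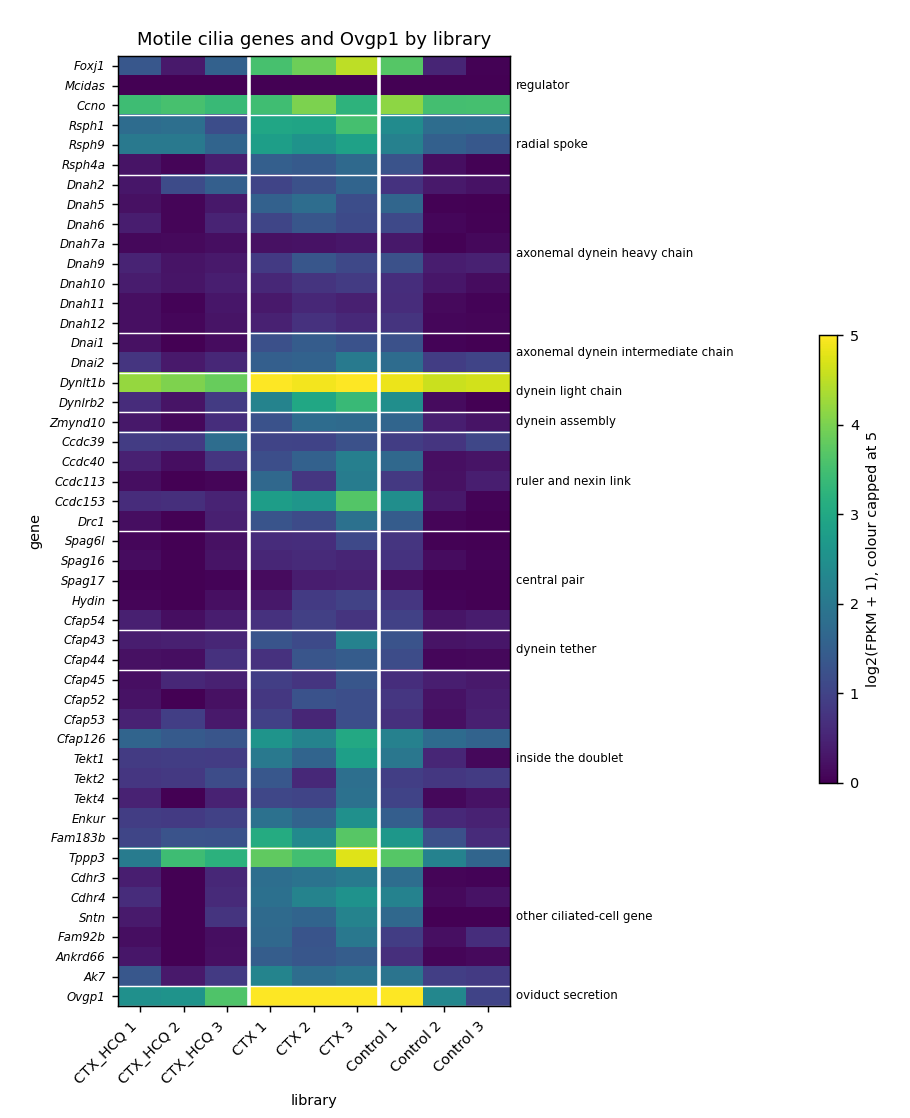
Heat map of the 48 genes (rows, grouped by role) in the 9 libraries (columns), coloured by log2(FPKM + 1) with the colour capped at 5. The columns of CTX 1 to 3 and Control 1 are brighter than the other 5 in most rows, while Ccno is alike in all columns and Mcidas is at 0 throughout.

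Among the regulators, Foxj1, the forkhead factor that drives motile ciliogenesis, had 1.56, 0.262 and 1.94 FPKM in CTX_HCQ 1 to 3, 10.6, 14 and 21.5 FPKM in CTX 1 to 3, and 11.7, 0.425 and 0.0231 FPKM in Control 1 to 3. The last value was 1 read, against 523 reads in Control 1. The groups averaged 1.25 ± 0.88 FPKM in CTX_HCQ, 15.4 ± 5.6 FPKM in CTX and 4.06 ± 6.66 FPKM in Control (SD, n = 3 each), and the Control SD exceeded the Control mean. All CTX_HCQ libraries were below all CTX libraries, while CTX and Control overlapped through Control 1. Mcidas, which starts the multiciliated programme, had 0 reads in every library, where 3 reads would have been 0.0703 to 0.0823 FPKM. Ccno, a cyclin of centriole amplification that oocytes also express, had 9.91, 10.7 and 9.54 FPKM in CTX_HCQ, 9.98, 15.1 and 8.41 FPKM in CTX, and 16.8, 10.3 and 10.5 FPKM in Control. Ccno therefore overlapped between all groups and did not share the order of Foxj1.

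Radial spoke heads, which pass signals from the central pair to the dyneins, were represented by Rsph1, Rsph9 and Rsph4a. Rsph1 had 2.42, 2.54 and 1.28 FPKM in CTX_HCQ 1 to 3, 6.76, 6.60 and 10.5 FPKM in CTX 1 to 3, and 4.34, 2.44 and 2.52 FPKM in Control 1 to 3. Rsph9 had 3.05, 3.07 and 2.07 FPKM in CTX_HCQ, 5.94, 4.92 and 6.27 FPKM in CTX, and 3.57, 1.91 and 1.59 FPKM in Control. Rsph4a had 0.198, 0.047 and 0.321 FPKM in CTX_HCQ, 1.84, 1.68 and 2.25 FPKM in CTX, and 1.44, 0.137 and 0.0166 FPKM in Control. For all 3 spoke genes every CTX library was above every CTX_HCQ and every Control library, and Control 1 was the highest control. The differences, CTX minus Control, were 1.13 for Rsph1 (SE 0.26), 1.04 for Rsph9 (SE 0.23) and 1.04 for Rsph4a (SE 0.33). CTX_HCQ minus CTX gave -1.54 for Rsph1, -0.85 for Rsph9 and -1.30 for Rsph4a. Rsph1 and Rsph9 kept 27 to 61 and 42 to 86 reads in the libraries where they were lowest, whereas Rsph4a had 1 read in Control 3 and 3 reads in CTX_HCQ 2.

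The axonemal dyneins are the motors of the beat. Their heavy chains are Dnah5, Dnah9 and Dnah11 of the outer arm and Dnah2, Dnah6, Dnah7a, Dnah10 and Dnah12 of the inner arm. Dnah5 had 0.170, 0.0549 and 0.254 FPKM in CTX_HCQ 1 to 3, 1.93, 2.47 and 1.28 FPKM in CTX 1 to 3, and 2.14, 0.0143 and 0.0116 FPKM in Control 1 to 3. In reads these were 44, 15 and 61 in CTX_HCQ, 507, 656 and 329 in CTX, and 569, 4 and 3 in Control. CTX 3 was thus the lowest of the 4 high libraries for this gene. The 8 heavy chains together summed to 1.84, 1.90 and 3.68 FPKM in CTX_HCQ, 6.10, 8.87 and 7.54 FPKM in CTX, and 7.37, 1.07 and 0.881 FPKM in Control. Dnah9, Dnah11, Dnah12 and Dnah7a had their 4 highest values in CTX 1 to 3 and Control 1, as had Dnah6 and Dnah10. Dnah7a never passed 0.245 FPKM, and its reads may be shared with its near-identical neighbours Dnah7b and Dnah7c.

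Dnah2 departed from the other heavy chains. It had 0.238, 1.2 and 1.85 FPKM in CTX_HCQ 1 to 3, 1.05, 1.36 and 2.05 FPKM in CTX 1 to 3, and 0.653, 0.268 and 0.178 FPKM in Control 1 to 3. CTX_HCQ 2 and 3 thus reached the CTX range while every control stayed below CTX. It is 1 of 8 members with a CTX_HCQ mean above the Control mean, with a difference of 0.55.

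The intermediate chains of the outer arm, Dnai1 and Dnai2, anchor the motor to the doublet. Dnai1 had 0.173, 0 and 0.117 FPKM in CTX_HCQ, 1.35, 1.73 and 1.40 FPKM in CTX, and 1.36, 0.0401 and 0 FPKM in Control. Dnai2 had 0.700, 0.263 and 0.471 FPKM in CTX_HCQ, 1.86, 1.98 and 3.15 FPKM in CTX, and 2.40, 0.878 and 1.04 FPKM in Control, so that its low controls stayed above all CTX_HCQ libraries. Dynlrb2, a roadblock light chain, had 0.542, 0.206 and 0.820 FPKM in CTX_HCQ, 3.74, 6.87 and 9.53 FPKM in CTX, and 4.56, 0.10 and 0 FPKM in Control. It is a short transcript, so these were 5, 2 and 7 reads in CTX_HCQ, 35, 65 and 87 in CTX, and 43, 1 and 0 in Control, and 3 reads in Control 3 would have been 0.327 FPKM. Zmynd10, a factor that assembles dynein arms in the cytoplasm, had 0.255, 0.0806 and 0.582 FPKM in CTX_HCQ, 1.40, 2.40 and 2.32 FPKM in CTX, and 2.10, 0.340 and 0.199 FPKM in Control. Dnai1, Dynlrb2 and Zmynd10 all put Control 1 inside the CTX range.

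Dynlt1b, a Tctex-type light chain that also serves cytoplasmic dynein, was well expressed in every library. It had 17.5, 15.4 and 13.3 FPKM in CTX_HCQ 1 to 3, 37.6, 29.3 and 31.5 FPKM in CTX 1 to 3, and 27.7, 23.3 and 24.3 FPKM in Control 1 to 3. The groups averaged 15.4 ± 2.13 FPKM in CTX_HCQ, 32.8 ± 4.32 FPKM in CTX and 25.1 ± 2.31 FPKM in Control (SD, n = 3 each), and no 2 groups overlapped. The difference was 0.37 for CTX minus Control (SE 0.18), -1.05 for CTX_HCQ minus CTX and -0.68 for CTX_HCQ minus Control. Its near-identical copies lay lower, with 1.65 to 3.92 FPKM for Dynlt1a, 1.56 to 4.16 FPKM for Dynlt1c and 6.29 to 20.8 FPKM for Dynlt1f, and reads may be split among them, so Dynlt1b is uncertain as a single gene.

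**Figure D2:**
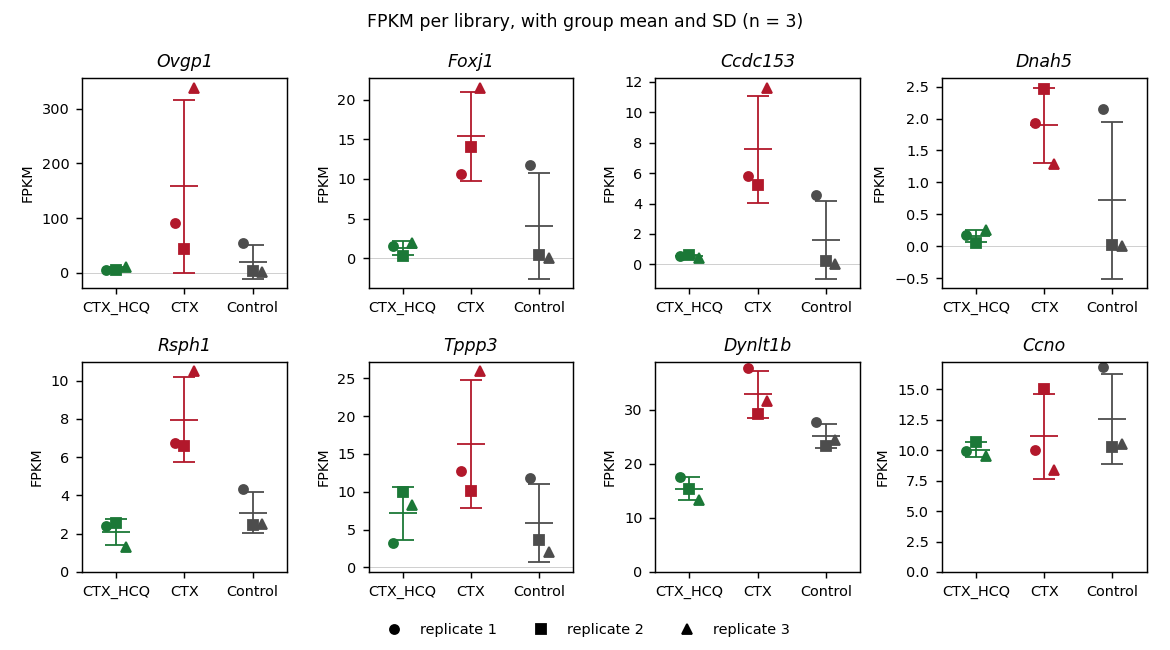
FPKM of 8 genes in each library (points, shaped by replicate number), by group, with the group mean and SD as lines (n = 3); axes start at 0 or below it where the SD reaches below 0. For Ovgp1, Foxj1, Ccdc153 and Dnah5 the circle of Control 1 lies near the CTX points and the other 2 controls lie at the bottom, whereas the Dynlt1b groups are separate and the Ccno groups overlap.

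The molecular ruler Ccdc39 and Ccdc40 sets the spacing of arms and spokes along the doublet, and Drc1, Ccdc153 and Ccdc113 belong to the nexin link or its surroundings. Ccdc153 had 0.563, 0.590 and 0.416 FPKM in CTX_HCQ 1 to 3, 5.84, 5.2 and 11.6 FPKM in CTX 1 to 3, and 4.57, 0.246 and 0.0298 FPKM in Control 1 to 3. It was among the members most unlike between groups, with 2.08 for CTX minus Control (SE 0.55) and -2.42 for CTX_HCQ minus CTX. Ccdc40 had 0.380, 0.133 and 0.702 FPKM in CTX_HCQ, 1.29, 1.94 and 3.45 FPKM in CTX, and 2.22, 0.148 and 0.201 FPKM in Control. Drc1 ranged from 0.0213 to 0.364 FPKM in CTX_HCQ and from 1.21 to 2.63 FPKM in CTX, and had 1.76, 0.0415 and 0 FPKM in Control. Ccdc113 had 0.140, 0 and 0.0506 FPKM in CTX_HCQ, 2.22, 0.730 and 3.31 FPKM in CTX, and 0.778, 0.173 and 0.330 FPKM in Control.

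Ccdc39 did not follow its partner Ccdc40. It had 0.859, 0.799 and 2.43 FPKM in CTX_HCQ 1 to 3, 1.02, 0.995 and 1.37 FPKM in CTX, and 0.879, 0.711 and 1.09 FPKM in Control, and it was the single member with a higher mean in CTX_HCQ than in CTX. An exon of Ccdc39 overlaps Ttc14 on the opposite strand, which had 7.18, 7.36 and 17.4 FPKM in CTX_HCQ, 7.21, 5.30 and 6.69 FPKM in CTX, and 5.68, 5.14 and 8.01 FPKM in Control. Both genes were thus highest in CTX_HCQ 3. Whether reads were counted by strand is not stated, and the share of Ttc14 reads in the Ccdc39 value was not tested. In all, 16 members share exon sequence with another gene, 14 of them with one on the opposite strand.

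The central pair genes Spag6l, Spag16, Spag17, Hydin and Cfap54 were scarce and none passed the filter on FPKM. Cfap54 had 0.350, 0.145 and 0.320 FPKM in CTX_HCQ 1 to 3, 0.633, 0.915 and 0.686 FPKM in CTX 1 to 3, and 0.965, 0.213 and 0.302 FPKM in Control 1 to 3. Spag6l had 0.0661, 0 and 0.172 FPKM in CTX_HCQ, 0.548, 0.580 and 1.14 FPKM in CTX, and 0.698, 0.0244 and 0 FPKM in Control. Hydin, a very long gene, had 13, 0 and 44 reads in CTX_HCQ, 76, 246 and 293 reads in CTX, and 226, 12 and 4 reads in Control. Spag16 and Spag17 lay at 0.653 and 0.359 FPKM or less in every library. For all 5 the 4 highest libraries were CTX 1 to 3 and Control 1.

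Cfap43 and Cfap44 tether an inner dynein to the doublet. Cfap43 had 0.325, 0.357 and 0.443 FPKM in CTX_HCQ 1 to 3, 1.47, 1.17 and 3.66 FPKM in CTX 1 to 3, and 1.43, 0.205 and 0.241 FPKM in Control 1 to 3. Cfap44 had 0.165, 0.143 and 0.644 FPKM in CTX_HCQ, 0.630, 1.48 and 1.75 FPKM in CTX, and 1.23, 0.0597 and 0.0722 FPKM in Control. CTX_HCQ 3 was just above CTX 1 for Cfap44, so these groups met there.

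Proteins bound inside the doublets were represented by 9 genes, the tektins Tekt1, Tekt2 and Tekt4 and Cfap45, Cfap52, Cfap53, Cfap126, Enkur and Fam183b. Fam183b had 1.06, 1.41 and 1.38 FPKM in CTX_HCQ 1 to 3, 7.44, 4.15 and 12 FPKM in CTX 1 to 3, and 5.30, 1.38 and 0.535 FPKM in Control 1 to 3. Cfap126, also named Flattop, had 2.07, 1.68 and 1.51 FPKM in CTX_HCQ, 4.99, 3.71 and 7.14 FPKM in CTX, and 3.59, 2.36 and 2.02 FPKM in Control. CTX 3 was the highest library for both. Tekt1 lay between 0.818 and 0.882 FPKM in CTX_HCQ and between 2.07 and 6.12 FPKM in CTX, and had 2.94, 0.447 and 0.0748 FPKM in Control. Enkur lay between 0.806 and 0.960 FPKM in CTX_HCQ and between 2.03 and 4.72 FPKM in CTX, and had 1.81, 0.50 and 0.389 FPKM in Control. Tekt4, Cfap45 and Cfap52 had every CTX library above every CTX_HCQ and Control library. Tekt2 and Cfap53 did not, since CTX 2 had 0.495 FPKM of Tekt2 and 0.452 FPKM of Cfap53, below CTX_HCQ 2 with 0.783 and 0.902 FPKM.

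Of the other genes of ciliated cells, Tppp3, a tubulin-binding protein that stromal cells can also express, had 3.23, 9.97 and 8.22 FPKM in CTX_HCQ 1 to 3, 12.8, 10.1 and 25.9 FPKM in CTX 1 to 3, and 11.8, 3.68 and 2.10 FPKM in Control 1 to 3. CTX_HCQ 2 came close to CTX 2. Cdhr4, a cadherin-related gene, had 0.548, 0 and 0.507 FPKM in CTX_HCQ, 2.60, 3.74 and 4.88 FPKM in CTX, and 3.65, 0.0904 and 0.177 FPKM in Control. Its relative Cdhr3 ran from 0 to 0.471 FPKM in CTX_HCQ and from 2.51 to 3.15 FPKM in CTX, and had 2.46, 0.0488 and 0.0398 FPKM in Control. Sntn, the sentan of the ciliary tip, had 6, 0 and 13 reads in CTX_HCQ, 48, 43 and 76 reads in CTX, and 47, 0 and 0 reads in Control. Control 1 alone among the controls had reads of Sntn, and 3 reads in Control 2 and 3 would have been 0.135 and 0.147 FPKM.

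Ankrd66 had 0.231, 0 and 0.150 FPKM in CTX_HCQ 1 to 3, 1.77, 1.53 and 1.77 FPKM in CTX 1 to 3, and 0.586, 0.0426 and 0.0928 FPKM in Control 1 to 3, and is 1 of the members whose values brought the set into view. Fam92b, another of these, had 0.130, 0 and 0.140 FPKM in CTX_HCQ, 2.22, 1.48 and 3.01 FPKM in CTX, and 0.887, 0.160 and 0.565 FPKM in Control. In both, Control 1 was the highest control and yet clearly under CTX. Ak7, an adenylate kinase of the cilium, ran from 0.272 to 1.56 FPKM in CTX_HCQ and from 2.47 to 3.77 FPKM in CTX, and had 2.77, 0.914 and 0.793 FPKM in Control.

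Ovgp1 had the widest range of the set. It had 4.69, 4.90 and 11.3 FPKM in CTX_HCQ 1 to 3, 91.0, 44.4 and 339 FPKM in CTX 1 to 3, and 55.5, 4.01 and 1.01 FPKM in Control 1 to 3. In reads this was 277, 305 and 618 in CTX_HCQ, 5452, 2688 and 19812 in CTX, and 3354, 256 and 59 in Control. The CTX libraries and Control 1 were again the 4 highest, and Control 3 was the lowest. Means were 6.97 ± 3.76 FPKM in CTX_HCQ, 158 ± 158 FPKM in CTX and 20.2 ± 30.6 FPKM in Control (SD, n = 3 each), so the SD equalled or exceeded the mean in CTX and in Control. The differences were 3.76 for CTX minus Control (SE 1.09), -3.92 for CTX_HCQ minus CTX and -0.15 for CTX_HCQ minus Control.

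The amount of Ovgp1 per cilia gene was not constant. The ratio of Ovgp1 to Foxj1 FPKM was 3.0, 18.7 and 5.84 in CTX_HCQ 1 to 3, 8.58, 3.17 and 15.7 in CTX 1 to 3, and 4.72, 9.43 and 43.5 in Control 1 to 3. The value in Control 3 rests on 1 read of Foxj1 and that in CTX_HCQ 2 on 12 reads. Among the 4 libraries with at least 468 Foxj1 reads the ratio ran from 3.17 in CTX 2 to 15.7 in CTX 3. CTX 3 also had the largest share of its FPKM in mitochondrially encoded genes, at 28.9%, with 11.7% to 17.5% in the other 8 libraries, and the part of this in its Ovgp1 value was not tested.

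**Figure D3:**
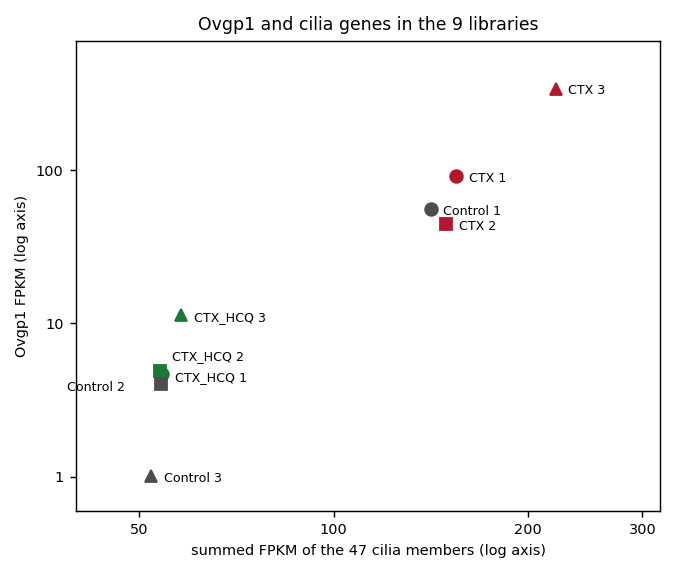
FPKM of Ovgp1 (vertical, log axis) against the summed FPKM of the 47 other members (horizontal, log axis), 1 point per library, coloured by group. CTX 1 to 3 and Control 1 lie at the upper right with 44.4 FPKM of Ovgp1 or more, and the other 5 libraries lie at the lower left with 11.3 FPKM or less. The sum includes Dynlt1b and Ccno, which make up much of it in the low libraries.

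Cyclophosphamide alone was set against Control to see how libraries from mice given the drug differ from those of mice given neither drug. Of the 47 members with any reads, 46 had a higher group mean in CTX, and Ccno had a lower one. The median difference over the 48 was 0.84, beside -0.0045 over the tested genes, of which 49.5% had a higher mean in CTX and 50.5% a lower one. Every CTX library was above every Control library in 14 members, and 8.72% of the tested genes had this order. These 14 were Rsph1, Rsph9, Rsph4a, Dnah2, Dynlt1b, Ccdc153, Cfap45, Cfap52, Cfap126, Tekt4, Enkur, Cdhr3, Fam92b and Ankrd66. In the other members Control 1 reached the CTX values, except in Mcidas, which was at 0, and in Ccno, Ccdc39 and Tekt2, where other controls also overlapped.

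Control 1 set how far the groups lay apart. Without it, all 47 members with reads had a higher mean in CTX, and the median difference was 1.12. In 44 members every CTX library was then above Control 2 and 3, an order found in 19.1% of the tested genes. For the 41 members whose 4 highest values were those of CTX 1 to 3 and Control 1, this follows from that order. The limma fit without Control 1 called 13 genes (0.0901%), 4 of them members, which were Ccdc153, Cdhr3, Dynlrb2 and Foxj1. Of these, Ccdc153, Cdhr3 and Dynlrb2 passed the filter only through CTX 1 to 3 and Control 1, where they were high. Control 1 is singled out here because it was itself high in the members. A fit that keeps Control 1 but gives libraries that stray from their group less weight called 648 genes (4.49%), 21 of them members. Since the members were chosen with these values known, the counts describe the set and do not support it.

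Hydroxychloroquine with cyclophosphamide was set against cyclophosphamide alone to see whether the second drug alters the profile. Of the 47 members with reads, 46 had a lower mean in CTX_HCQ, Ccdc39 being the exception. The median difference was -1.09, beside 0.0134 over the tested genes, of which 47.9% had a lower mean in CTX_HCQ and 52.1% a higher one. Every CTX_HCQ library was below every CTX library in 41 members, and 4.57% of the tested genes had this order. The members that overlapped were Ccno, Dnah2, Ccdc39, Cfap44, Cfap53 and Tekt2, beside Mcidas at 0. Without Control 1 in the shared estimate of the spread the fit called 10 genes (0.0693%), among them the members Ccdc153, Dynlrb2 and Foxj1. Of these, Ccdc153 and Dynlrb2 passed the filter only through CTX 1 to 3 and Control 1. This comparison shares the CTX libraries with the one before it, and neither supports the other.

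CTX_HCQ and Control differed less, and their order turned on a single library. With all libraries, 8 of 47 members had a higher mean in CTX_HCQ and 39 a lower one, with a median difference of -0.19, and of the tested genes 48.1% had a higher mean and 51.9% a lower one. Every CTX_HCQ library was below every Control library in 5 members, Dnai2, Dynlt1b, Ccdc113, Cfap52 and Fam92b, an order found in 3.06% of the tested genes, and above every Control library in 0 members (3.25% of the tested genes). Without Control 1, 37 members had a higher mean in CTX_HCQ and 10 a lower one, and the median difference was 0.12. In 9 members every CTX_HCQ library was then above Control 2 and 3, as in 8.06% of the tested genes. The 5 genes just named kept a lower mean in CTX_HCQ, with differences from -0.61 in Dynlt1b to -0.17 in Cfap52.

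**Figure D4:**
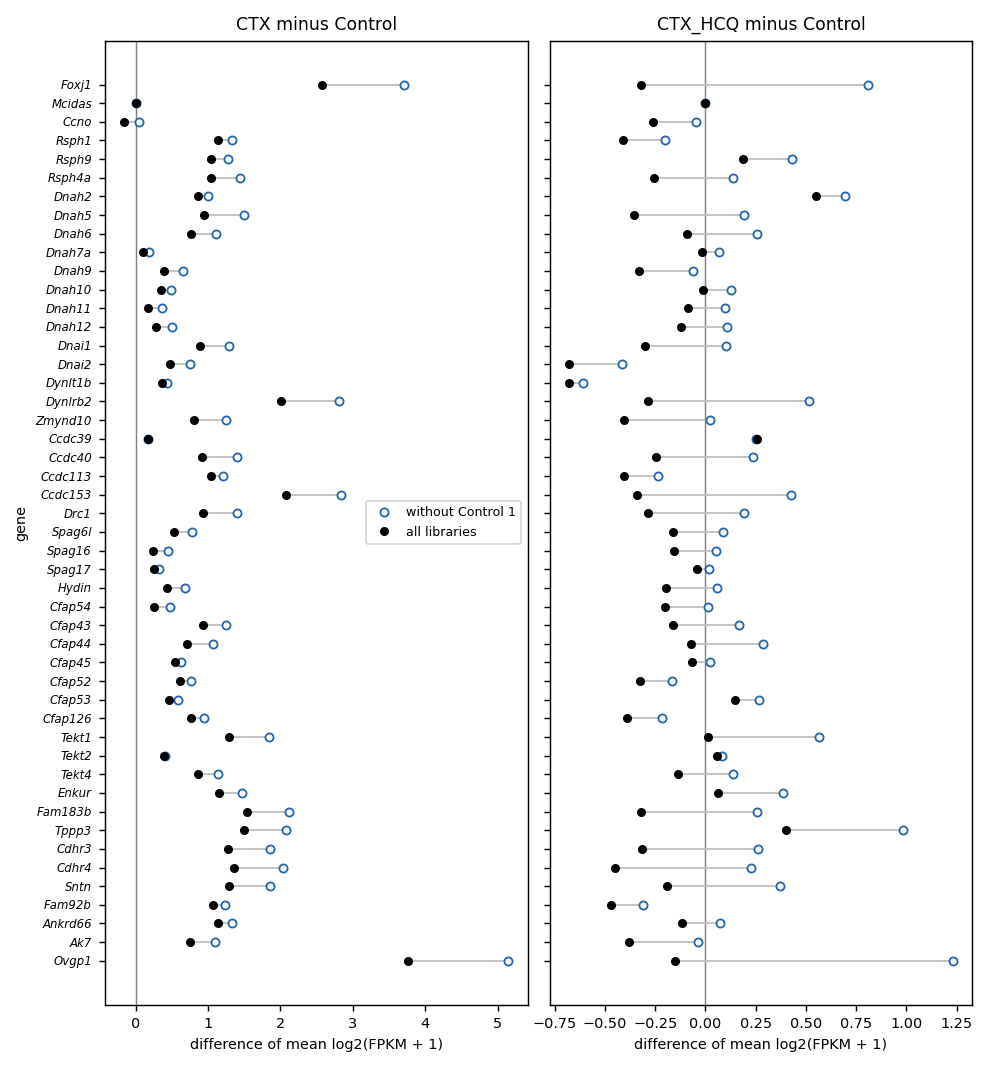
Difference of mean log2(FPKM + 1) for each of the 48 genes, CTX minus Control on the left and CTX_HCQ minus Control on the right, with all libraries (filled) and without Control 1 (open). Leaving Control 1 out moves nearly every gene to the right, and in the right panel it carries most genes from below 0 to above it.

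How many members could be seen at all also followed the 4 libraries. At least 20 reads were found for 27, 23 and 31 members in CTX_HCQ 1 to 3, for 46, 45 and 47 members in CTX 1 to 3, and for 45, 19 and 18 members in Control 1 to 3. CTX_HCQ 2 had 0 reads for 13 members, Control 3 for 7 and Control 2 for 2, and Mcidas was the single one at 0 in each of the other 6. At such counts a value of 0 does not show that a gene is absent.

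Further genes of motile cilia, 107 not among the members, were looked at as a list. Of these, 59 had their 4 highest values in CTX 1 to 3 and Control 1 (55.1%). In CTX over Control 94 had a higher mean and 11 a lower one, with a median difference of 0.35, and in CTX_HCQ under CTX 94 had a lower mean and 11 a higher one, with a median of -0.44. The groups did not overlap in 25 of them for CTX above Control and in 63 for CTX_HCQ below CTX, beside the 8.72% and 4.57% of tested genes given above. None of the 56 that entered the fit was called in the 3 comparisons of the unweighted fit with all libraries. The fit with library weights called 17 of them in CTX against Control. The fit without Control 1 called Nme9 and Tmem212 in CTX against Control and in CTX_HCQ against CTX. Nme9 passed the filter only through CTX 1 to 3 and Control 1.

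By mean level the list was led by Mlf1, Cfap20, Heatr2, Tmem212 and Spef1. Tmem212, a gene of multiciliated cells, had 0.590, 1.84 and 1.64 FPKM in CTX_HCQ, 22.0, 10.7 and 19.3 FPKM in CTX, and 14, 0.778 and 0.254 FPKM in Control, the order of Foxj1. Mlf1 had 10.7, 16.2 and 5.80 FPKM in CTX_HCQ, 24.0, 16.3 and 21.9 FPKM in CTX, and 18.2, 15.6 and 9.21 FPKM in Control. Cfap20 (10.7 to 13.1 FPKM), Heatr2, a dynein assembly factor (7.21 to 10.1 FPKM), and Spef1 (4.78 to 8.91 FPKM) had no such order over the 9 libraries. The upstream regulators Gmnc and Myb stayed at or under 0.0718 and 0.276 FPKM. Trp73, a p53 relative of multiciliated cells, had 0.120, 0.134 and 0.353 FPKM in CTX_HCQ, 0.902, 0.871 and 0.638 FPKM in CTX, and 0.606, 0.181 and 0.186 FPKM in Control. Rfx2 and Rfx3 lay between 0.422 and 1.5 FPKM and between 0.829 and 1.99 FPKM over all libraries, and neither had the order of the members.

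Of the 30 genes of intraflagellar transport, which the primary cilium also uses, 0 had their 4 highest values in CTX 1 to 3 and Control 1. With 2.49% of the tested genes in this order, a list of 30 can hold none at that share. In CTX against Control 22 had a higher mean and 8 a lower one, with a median difference of 0.14. In CTX_HCQ against CTX 20 had a lower mean and 10 a higher one, with a median of -0.058. The 30 genes summed to 188, 230 and 193 FPKM in CTX_HCQ, 220, 194 and 231 FPKM in CTX, and 194, 189 and 182 FPKM in Control. Ift88, a core carrier protein, had 3.23, 4.14 and 6.44 FPKM in CTX_HCQ, 3.75, 4.5 and 6.49 FPKM in CTX, and 6.03, 4.21 and 2.80 FPKM in Control.

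Markers of the oviduct and other Müllerian epithelium moved in part with the cilia genes. Of 24 such genes, 11 had their 4 highest values in CTX 1 to 3 and Control 1, and their part in the results above was not tested. The list summed to 211 to 243 FPKM in CTX_HCQ, 259 to 406 FPKM in CTX and 197 to 264 FPKM in Control, and 0 of the 24 was at 0 in any library. The secreted Wfdc2 had 1.53, 0.803 and 1.49 FPKM in CTX_HCQ, 4.95, 2.53 and 13.5 FPKM in CTX, and 3.88, 0.636 and 0.745 FPKM in Control. The tight junction gene Cldn3 had 11.5, 8.27 and 10.7 FPKM in CTX_HCQ, 21.1, 20.3 and 47.3 FPKM in CTX, and 19.5, 9.21 and 12.3 FPKM in Control. Pax8, which defines the Müllerian lineage, stayed low, with 0.0995, 0.0472 and 0.204 FPKM in CTX_HCQ, 0.481, 0.369 and 2.29 FPKM in CTX, and 0.486, 0.184 and 0.0400 FPKM in Control. Broad epithelial keratins, which the ovarian surface also expresses, differed among themselves. Krt18 had 34.5, 29.9 and 30.6 FPKM in CTX_HCQ, 39.6, 39.1 and 60.4 FPKM in CTX, and 33.7, 30.1 and 34.5 FPKM in Control, so that every CTX library was above all others. Krt8 and Krt19 were highest in CTX 3, with 61.3 and 79.0 FPKM, but CTX 1 and 2 were not above the other groups, and Krt7 lay at 7.62 to 12 FPKM over all libraries.

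Markers of the ovarian surface epithelium had another order. The 7 genes summed to 166, 79.3 and 187 FPKM in CTX_HCQ 1 to 3, 98.3, 134 and 100.1 FPKM in CTX 1 to 3, and 158, 152 and 194 FPKM in Control 1 to 3, with 0 of 7 at 0 in any library. None of the 7 had its 4 highest values in CTX 1 to 3 and Control 1, nor had any of 12 granulosa markers or 8 oocyte markers. With 2.49% of the tested genes in this order, lists this short can hold none at that share. The granulosa markers summed to 5306 to 6250 FPKM in CTX_HCQ, 5118 to 7416 FPKM in CTX and 4444 to 6691 FPKM in Control. The oocyte markers summed to 162 to 251 FPKM in CTX_HCQ, 178 to 256 FPKM in CTX and 178 to 277 FPKM in Control.

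Among the libraries rich in these genes, CTX 3 differed from CTX 2 and Control 1, but little from CTX 1, in its balance of short and long members. Over the 42 cilia members with at least 20 reads in each of CTX 1 to 3 and Control 1, the log2 ratio of CTX 3 over CTX 2 was lower in longer genes (Spearman rho -0.493), and over all 13985 such genes likewise (rho -0.301). These are correlations across genes of the same libraries, which are not independent replicates, and are given as descriptions. Members shorter than 3000 bases (20 genes) had a median log2 ratio of 0.91, and members of 9000 bases or more (10 genes) one of -0.37, with 0.22 and -0.29 over all genes. Fam183b, the short doublet gene, had a ratio of 1.54 and Dnah5 one of -0.95. Over Control 1 the relation was alike, with rho -0.509 in members and -0.318 in all genes. Over CTX 1 rho was -0.055 in members and -0.092 in all genes, and the member medians were 0.71 (shorter) and 0.48 (longer). A comparison of CTX 3 with CTX 2 or Control 1 between long and short members therefore carries a length trend seen in all genes, and its cause was not tested. CTX 1 was not set against CTX 2 or Control 1 in this way and may differ from them likewise. Summed FPKM of genes inside the doublet over that of dynein heavy chains was 3.85 in CTX 1 and 5.22 in CTX 3. It was 1.81 in CTX 2 and 2.37 in Control 1.

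**Figure D5:**
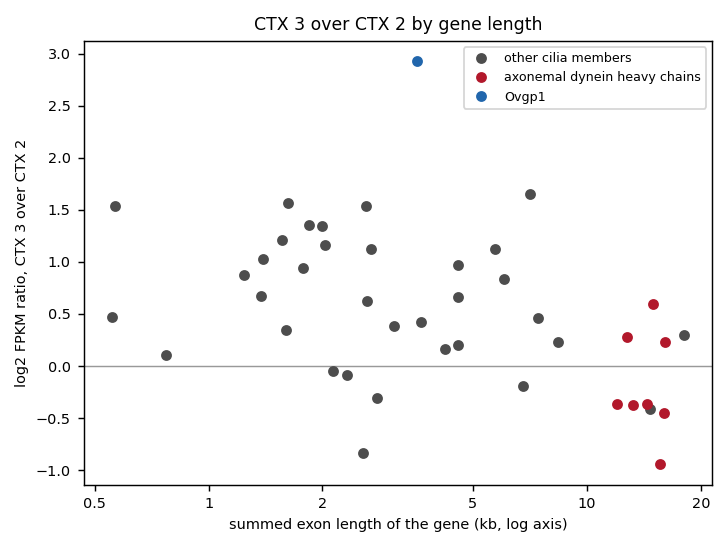
Log2 ratio of FPKM in CTX 3 over CTX 2 (vertical) against summed exon length (horizontal, log axis) for Ovgp1 and for cilia members with at least 20 reads in each of CTX 1 to 3 and Control 1. Most genes shorter than 3 kb lie above 0, the dynein heavy chains lie between -0.95 and 0.60, and Ovgp1 is the highest point at 2.93.

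Genes outside both cilia lists that most resembled the members were found by Pearson correlation of log2(FPKM + 1) over the 9 libraries. With the mean of the tested cilia members, the closest were Fam47e (0.995), Fam216b (0.993), Plk5 (0.992), Ccdc180 (0.986) and Cdkl1 (0.986), followed by Kcnk12, Zfp474, Rnf112, Sox3 and AU040972. With Ovgp1 alone, the closest were Ltf (0.989), Capsl (0.970), Smim5 (0.970), Ccdc17 (0.969) and Fam47e (0.968), followed by Cdkl1, Slc14a1, Plet1os, Plk5 and Ccdc180. Ltf, the secreted iron-binding lactoferrin, had 1.61, 2.01 and 3.85 FPKM in CTX_HCQ 1 to 3, 21.1, 13.5 and 56.9 FPKM in CTX 1 to 3, and 18.8, 0.436 and 0.158 FPKM in Control 1 to 3, so that CTX 3 was its highest library as it was for Ovgp1. Fam47e had 0.286, 0.136 and 0.618 FPKM in CTX_HCQ, 2.79, 2.34 and 4.07 FPKM in CTX, and 2.48, 0.0792 and 0.172 FPKM in Control. In all, 139 tested genes reached a correlation of 0.9 with the cilia mean, 25 of them members and 23 on the other motile cilia list, and 126 reached it with Ovgp1, 18 of them members and 19 on that list. The cilia mean includes those members, and all these values share the same 9 libraries.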

How the data were processed

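The authors deposited 1 table of FPKM per gene for the 9 libraries of polyadenylated RNA. The build was GRCm39, and DESeq2 1.20.0, featureCounts 1.5.0-p3, fastp 0.23.2 and HISAT2 2.0.5 were used, per the submitters' processing notes. Their settings and strandedness are not given in the sources used here. GENCODE M21, of another build, gave symbols and exon lengths: 46 members matched by symbol and 2 (Dnai1, Dnai2) by RefSeq synonym. Whole reads were recovered from the deposited FPKM for all 14431 tested genes (tolerance 0.02 reads, 13578 with the annotated length, 853 with a searched one). Their sums did not match the library sizes exactly. 3 reads were taken as the limit that 0 reads allow, which covers counting error only.

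Genes with FPKM of at least 1 in 3 or more libraries were fitted as log2(FPKM + 1) in limma 3.58.1 under R 4.3.3, with group means, a variance trend and Benjamini-Hochberg adjustment over all tested genes, at 0.05. The fit and the read recovery were tested on simulated data. Alternatives changed the pseudocount, filter, scaling, test, library weights and replicates used. Members and gene lists were chosen with earlier results of these data known. Every member is named. Every library's value is given for Ovgp1, the regulators, the spokes, the 5 genes that brought the set into view and, in each other role, the 2 members highest in mean FPKM and the 1 with the largest difference. Some further members are given in full beside these, chosen after their values were seen.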

Additional observations from a re-analysis of the deposited data

How the results depend on the processing

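With a pseudocount of 0.1 or 0.01 in place of 1, the median member difference was 1.78 or 2.13 in CTX against Control and -1.98 or -2.30 in CTX_HCQ against CTX, and 17 or 19 members were higher in CTX_HCQ than in Control, against 8. A pseudocount of 0.01 and library weights each called 1 gene in CTX_HCQ against CTX and 1 in CTX_HCQ against Control, none a member, and library weights called 648 in CTX against Control. Leaving out 1 library at a time gave 0 to 13 genes called in CTX against Control and 0 to 10 in CTX_HCQ against CTX, with the 13 and the 10 reached without Control 1. The same gave 0 to 2 members higher in CTX_HCQ than in CTX, and 5 to 37 higher in CTX_HCQ than in Control, the 37 again without Control 1. With CTX 3 and Control 1 both left out, chosen after seeing the data, 37 members were higher in CTX_HCQ than in Control, with a median difference of 0.12.

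Replicate numbers were entered as a block, which called 0 genes in each comparison (unadjusted p under 0.05 in limma: 847, 668 and 293). After group means were removed, correlations of same-numbered libraries ran from -0.457 to 0.135, and those of other pairs from -0.291 to 0.315. With 3 libraries per group these values cannot decide whether same-numbered libraries share a batch, which the labels do not state. limma voom on the recovered reads also called 0 genes in each comparison. Of 858 values of named members under alternatives, 91 moved by over 1 within-group SD, 85 of them under another pseudocount; leaving out 1 of 3 libraries cannot move a value that far. Members with few reads in low libraries, and near-copies or overlapping genes, are the least certain.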
